A study of Mus musculus with 8 samples.

Results

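The lysosome genes described here are 34 genes for the soluble enzymes, the membrane proteins and the proton pump of the lysosome, chosen by their symbols among the 22520 genes of the deposited RNA sequencing table. They comprise 17 enzymes and other luminal proteins, 5 membrane proteins, 11 subunits of the proton pump and the transcription factor Tfeb. All 34 were found in the table, and all 34 were among the 11389 genes tested, those at 1 FPKM or more in 4 or more of the 8 libraries. Atp6v0d2 passed this filter through its 4 LRP1 KO libraries and 2 of its WT libraries.

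The study compared microvascular endothelial cells (ECs) from mice lacking the endocytic receptor LRP1 in the endothelium with ECs from their littermates. The LRP1 KO mice were LRP1 f/f; Cdh5-CreER+/-, and the WT mice were LRP1 f/f; Cdh5-CreER-/-, so that both groups carried the floxed Lrp1 alleles. Cre activity depended on the endothelial Cdh5 promoter and on tamoxifen. All mice were C57BL/6 at postnatal day 14, the cells were selected with PECAM-1 antibody beads, and each group had 4 libraries. The labels describe every library as mixed from heart, liver and lung, whereas the study's text treats liver ECs and heart and lung ECs apart, so it cannot be told here whether libraries of a group differ in tissue. Nothing in the labels says that the libraries came from separate mice, so the p-values measure the spread between these libraries.

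Levels are given in FPKM, a count of fragments scaled by transcript length and sequencing depth, which allows genes of different length to be compared. The unit was inferred from the values. Differences are LRP1 KO minus WT on the log2(FPKM + 1) scale, with the standard error (SE), and understate the change of genes at low levels. A gene was called when its limma p-value, adjusted over all 11389 genes, was under 0.05. Lrp1 itself checked the labels: its levels were 113, 140.4, 103 and 124 FPKM in the WT libraries and 3.45, 5.20, 2.79 and 7.72 FPKM in the LRP1 KO libraries, which left 3.99% of the WT mean (difference -4.45, SE 0.23, limma adjusted p = 8.89e-05).

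Genes used as fibroblast and mural markers were at higher summed levels than endothelial markers, and whether they came from other cells or from the selected cells was not tested. The summed level of 12 fibroblast markers, led by Col1a2, Dcn and Fbln2, was 2945 to 4136 FPKM in WT libraries, and 2823 to 3891 FPKM in LRP1 KO libraries, whereas that of 18 endothelial markers, led by Eng, Emcn and Egfl7, was 178 to 194 FPKM in WT libraries, and 185 to 639 FPKM in LRP1 KO libraries. LRP1 KO library 4 stood apart from the other 3 LRP1 KO libraries. Its endothelial sum was 185 FPKM against 405 to 639 FPKM, and its Lrp1 level of 7.72 FPKM was the highest of the LRP1 KO libraries. Of 17 tested endothelial markers 1 was called higher with all libraries, where 6.27% of all tested genes were, and 15 without this library, where 12.6% were. The count was 0 when any other library was left out. Counts of calls are therefore given with and without it. In bulk RNA, fewer cells of a type and less RNA per cell cannot be told apart.

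Lysosomes break down material delivered by endocytosis and autophagy. Their soluble hydrolases work at acid pH, which is kept by the vacuolar H+-ATPase (V-ATPase), a pump with a cytosolic V1 sector that hydrolyses ATP and a membrane V0 sector that carries protons. Glycosylated membrane proteins line the organelle, and the transcription factor TFEB activates many lysosomal genes through a promoter motif with an E-box core. LRP1 is a receptor whose ligands are delivered to lysosomes.

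The E-box core CACGTG, whose reverse complement is the same, was searched for in promoter windows from 250 bases before to 50 bases after the transcription start (RefSeq, GRCm38.p6). A window was present for 29 of the 34 genes. The core was in 1 or more windows of 11 of these 29 genes (37.9%), against 8.09% of 27025 genes and 12.2% of the 8351 tested genes with a window. The longer TCACGTG, on either strand and containing the core, was found for the same 11 genes (37.9%), against 4.29% of the 27025 genes and 7.35% of the 8351 tested genes. The core was found in 6 of 16 enzyme genes, 2 of 5 membrane protein genes, 3 of 7 pump genes and not in the Tfeb window. The stretches around it are shown for 3 enzyme genes whose call turned on 1 library, for both membrane protein genes that hold it and for 1 pump gene. Each is printed in the direction of transcription with the core in capitals.
Gaa (chr11:119267803-119267848, plus strand): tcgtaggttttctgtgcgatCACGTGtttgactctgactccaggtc
Naglu (chr11:101070001-101070046, plus strand): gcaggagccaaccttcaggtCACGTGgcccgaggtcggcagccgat
Glb1 (chr9:114401010-114401055, plus strand): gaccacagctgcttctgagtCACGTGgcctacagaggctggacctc
Lamp1 (chr8:13159080-13159171, plus strand): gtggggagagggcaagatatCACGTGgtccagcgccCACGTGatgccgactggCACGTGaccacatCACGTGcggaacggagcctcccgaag
Mcoln1 (chr8:3500428-3500499, plus strand): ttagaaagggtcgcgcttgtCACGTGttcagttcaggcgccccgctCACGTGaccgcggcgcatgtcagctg
Atp6v0d1 (chr8:105566042-105566087, minus strand): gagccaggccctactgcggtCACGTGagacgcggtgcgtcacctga
Lamp1 held 4 copies of the core, from position -61 to position -15 relative to the transcription start, and Mcoln1 held 2. The single core lay at position -140 in Gaa, -73 in Naglu, -48 in Glb1 and -3 in Atp6v0d1. The 11 genes with the core had differences from -0.46 to 0.07 with a median of -0.16, and the 18 without it had differences from -0.31 to 0.16 with a median of -0.06. Atp6v0d2 and Asah1 had no window and were in neither group. A match is a description of the letters and shows no binding.

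The pump subunit gene Atp6v0d2 was 8.42-fold higher and the acid ceramidase gene Asah1 was 1.43-fold higher in LRP1 KO than in WT libraries. Of the 34 genes, these 2 (5.88%) passed the test as higher, where 6.27% of all tested genes did. Atp6v0d2 is in this count only because its LRP1 KO libraries brought it past the filter, so nothing is read from the count. With limma, 0 of the 34 passed as lower, where 7.31% of all tested genes did. At an unadjusted p under 0.05 by limma, 4 of the 34 (11.8%) were higher and 7 (20.6%) were lower, where 15.5% and 18.2% of all tested genes were. Without LRP1 KO library 4 these were 5 (14.7%) and 9 (26.5%), where 19.2% and 20.7% of all tested genes were. With a change of at least 2-fold in addition, Atp6v0d2 alone was called higher, where 1.12% of all tested genes were.

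The groups did not overlap in 9 genes. In 4 genes (11.8%), Asah1, Atp6v0d2, Atp6v1c1 and Atp6v1h, no WT library reached the lowest LRP1 KO library, as for 8.84% of all tested genes. In 5 genes (14.7%), Arsa, Glb1, Idua, Man2b1 and Atp6v0a1, no WT library was as low as the highest LRP1 KO library, as for 10.7% of all tested genes. With LRP1 KO libraries 1 to 3 alone, 5 of the 34 genes (14.7%) lay above all WT libraries, as for 17.8% of all tested genes, and 12 (35.3%) lay below, as for 19.9%. Without LRP1 KO library 4, 3 of the 34 genes (8.82%) passed as higher, where 12.6% of all genes did. The genes that passed as lower were then 5 (14.7%), where 13.9% of all genes did.

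**Figure D1:**
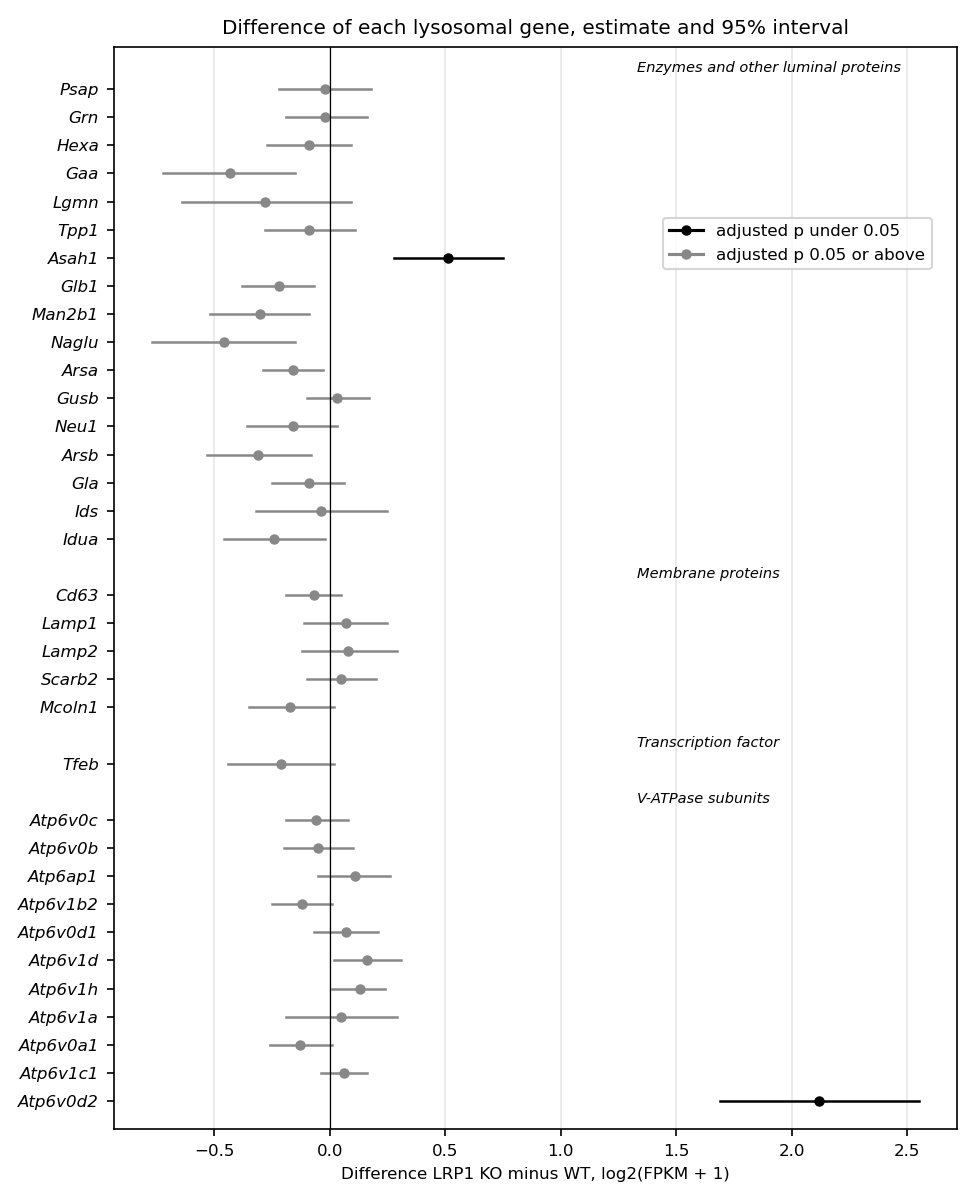
Difference LRP1 KO minus WT on the log2(FPKM + 1) scale for each of the 34 genes, with its 95% interval from limma (4 libraries a group), ordered within each class by the WT level. Asah1 at 0.51 and Atp6v0d2 at 2.12 are the black points with adjusted p under 0.05, and 15 of the 17 enzyme and luminal genes lie left of 0.

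Of the 17 enzyme and luminal genes, 15 (88.2%) had a lower mean in LRP1 KO libraries, where 51.9% of all tested genes did, and their median difference was -0.16 against -0.01 for all tested genes. It was -0.17 without LRP1 KO library 4 and -0.09 without WT library 2. The 5 membrane protein genes had a median of 0.05 with 3 higher and 2 lower. The 11 pump genes had a median of 0.06 with 7 higher and 4 lower. These are descriptions of the 3 classes, whose difference was not tested. For 33 of the 34 genes (97.1%) the whole 95% interval lay within a 2-fold change, as for 94.1% of all tested genes, and for 27 (79.4%) it lay within 0.5 on the log2 scale, as for 73.8% of all tested genes.

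Levels spread more between genes than between groups. The WT means ran from 10.2 to 691 FPKM for the enzymes, from 36.8 to 851 FPKM for the membrane proteins and from 0.848 to 411 FPKM for the pump, beside a median of 11.7 FPKM over all tested genes. Cd63, Psap, Lamp1, Atp6v0c and Grn had the highest WT means. Summed over the class, the enzymes reached 2069 ± 206 FPKM in WT libraries, and 1959 ± 113 FPKM in LRP1 KO libraries (SD, n = 4), and the membrane proteins reached 1850.5 ± 107 and 1852 ± 26.4 FPKM. The pump genes summed to 1341 ± 48.0 and 1349 ± 40.3 FPKM. Each of these sums differed between the groups by less than the spread between WT libraries.

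**Figure D2:**
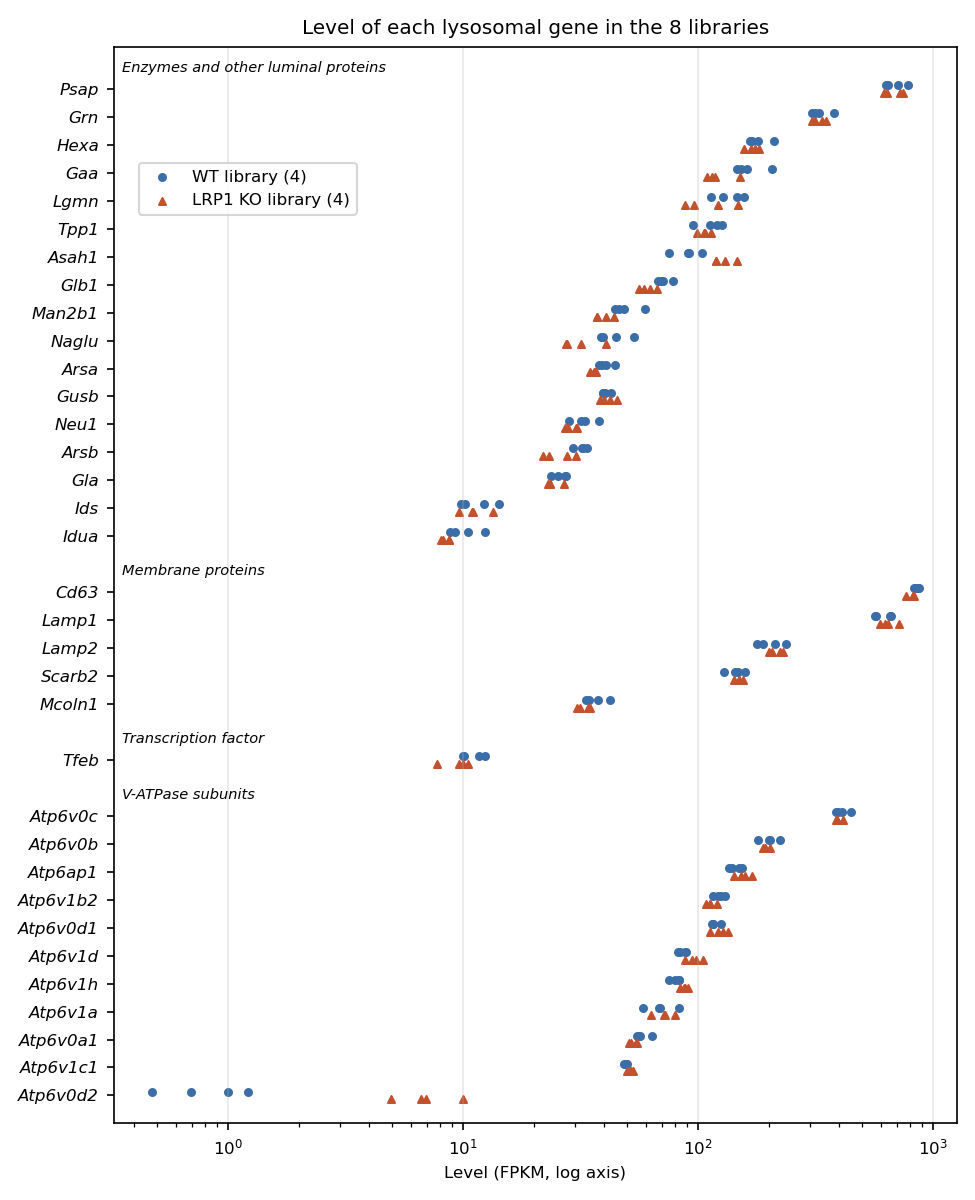
Level in FPKM (log axis) of each lysosome gene in the 4 WT libraries (circles) and the 4 LRP1 KO libraries (triangles). The groups overlap for most genes, while the Atp6v0d2 circles end at 1.22 FPKM and its triangles begin at 4.93 FPKM.

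The enzymes that degrade glycolipids included the member that rose. Asah1, at chr8:41340197-41374773 on the minus strand (GRCm38, GENCODE M21), encodes acid ceramidase, which splits ceramide into sphingosine and a fatty acid. Its levels were 75.1, 90.5, 104 and 91.6 FPKM in WT libraries, and 130.5, 119.6, 147 and 119 FPKM in LRP1 KO libraries. The groups did not overlap, and LRP1 KO library 3 was highest. The means were 90.3 ± 11.8 and 129 ± 13.2 FPKM (SD, n = 4), a difference of 0.51 (SE 0.10, 95% interval 0.28 to 0.75, adjusted p = 0.0164 by limma). It was 0.55 without LRP1 KO library 4 (limma adjusted p = 0.00836). Among all settings tried the adjusted p was highest, 0.04995, without WT library 2, just under the threshold.

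Across the LRP1 KO libraries, Asah1 and the macrophage markers were in a different order. The summed macrophage markers were lowest in LRP1 KO library 3, at 172 FPKM, where Asah1 was highest. The endothelial sum was 639, 405, 473 and 185 FPKM across LRP1 KO libraries 1 to 4, and Asah1 in library 4, at 119 FPKM, was still above its WT range of 75.1 to 104 FPKM. The summed mural markers were 1627, 1372, 1548 and 1039 FPKM across LRP1 KO libraries 1 to 4, and 670.1 to 836 FPKM in WT libraries. Like Asah1, they were higher in LRP1 KO libraries 1 and 3 than in libraries 2 and 4. The part of any of these cell types in the rise was not tested.

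The other glycolipid enzymes did not pass the test. Glb1, the lysosomal beta-galactosidase, had 67.3, 78.2, 71.3 and 69.4 FPKM in WT libraries, and 59.0, 62.6, 56.3 and 67.0 FPKM in LRP1 KO libraries. All LRP1 KO values were below all WT values, by a margin of less than 1 FPKM at the nearest pair. Its difference was -0.22 (SE 0.07, adjusted p = 0.0617 by limma), and without LRP1 KO library 4 it was -0.27 and passed (limma adjusted p = 0.0203). Part of the Glb1 transcript, 4.94% of its 50-base stretches, is shared with Tmppe, which makes its level uncertain.

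Arsa, arylsulfatase A, cleaves sulfate from sulfatide. Its levels were 37.9, 44.4, 40.6 and 39.1 FPKM in WT libraries, and 34.9, 36.5, 36.1 and 36.9 FPKM in LRP1 KO libraries. The groups were separate and the LRP1 KO libraries lay close together, yet the difference of -0.16 (SE 0.06) did not pass the test (limma adjusted p = 0.0959). An antisense gene, C230037L18Rik, covers 18.8% of its exon bases, and whether the reads were counted by strand is not given in the sources used here.

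The remaining glycolipid genes lay near 0. Hexa, the alpha subunit of beta-hexosaminidase, had a difference of -0.09 (SE 0.08). Gla, alpha-galactosidase A, also had -0.09 (SE 0.07), and Neu1, the lysosomal sialidase, had -0.16 (SE 0.09). Their groups overlapped and none passed the test. Psap, the precursor of the saposins that present lipids to these enzymes, had 628, 782, 708 and 644 FPKM in WT libraries, and 621, 745, 635 and 722 FPKM in LRP1 KO libraries. It was the most abundant luminal gene and its difference of -0.02 (SE 0.09, 95% interval -0.22 to 0.18) was smaller than its SE.

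The enzymes that degrade glycogen, glycosaminoglycans and glycoproteins held the lowest estimates. Gaa, acid alpha-glucosidase, degrades glycogen in the lysosome. It had 152, 207, 162 and 147 FPKM in WT libraries, and 109, 118, 115 and 151 FPKM in LRP1 KO libraries. LRP1 KO libraries 1 to 3 were below every WT library, and library 4 was within the WT range. The difference was -0.43 (SE 0.13, adjusted p = 0.0533 by limma) with all libraries and -0.54 (limma adjusted p = 0.00941) without LRP1 KO library 4.

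Naglu encodes the enzyme that removes N-acetylglucosamine from heparan sulfate. Its levels were 39.3, 53.3, 44.6 and 38.7 FPKM in WT libraries, and 27.8, 31.8, 27.3 and 40.5 FPKM in LRP1 KO libraries. Library 4 was again the one LRP1 KO library within the WT range. The difference was -0.46 (SE 0.14, adjusted p = 0.0561 by limma), the lowest of the 34 genes, and -0.58 without library 4 (limma adjusted p = 0.00765).

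Man2b1, lysosomal alpha-mannosidase, acts on the glycans of glycoproteins. It had 44.5, 59.5, 48.4 and 46.0 FPKM in WT libraries, and 37.2, 40.7, 37.2 and 44.1 FPKM in LRP1 KO libraries. The groups did not overlap, and library 4 was the LRP1 KO library nearest to WT. The difference was -0.30 (SE 0.10, adjusted p = 0.0636 by limma) and without library 4 it was -0.35 (limma adjusted p = 0.0297).

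Arsb, arylsulfatase B, acts on dermatan sulfate. Its levels were 32.1, 29.4, 33.6 and 32.5 FPKM in WT libraries, and 21.8, 27.7, 23.3 and 30.3 FPKM in LRP1 KO libraries. LRP1 KO library 4 alone was within the WT range. The difference was -0.31 (SE 0.10, adjusted p = 0.0683 by limma) and -0.39 without library 4 (limma adjusted p = 0.0132). The antisense gene Gm26527 covers 32.3% of the exon bases of Arsb.

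**Figure D3:**
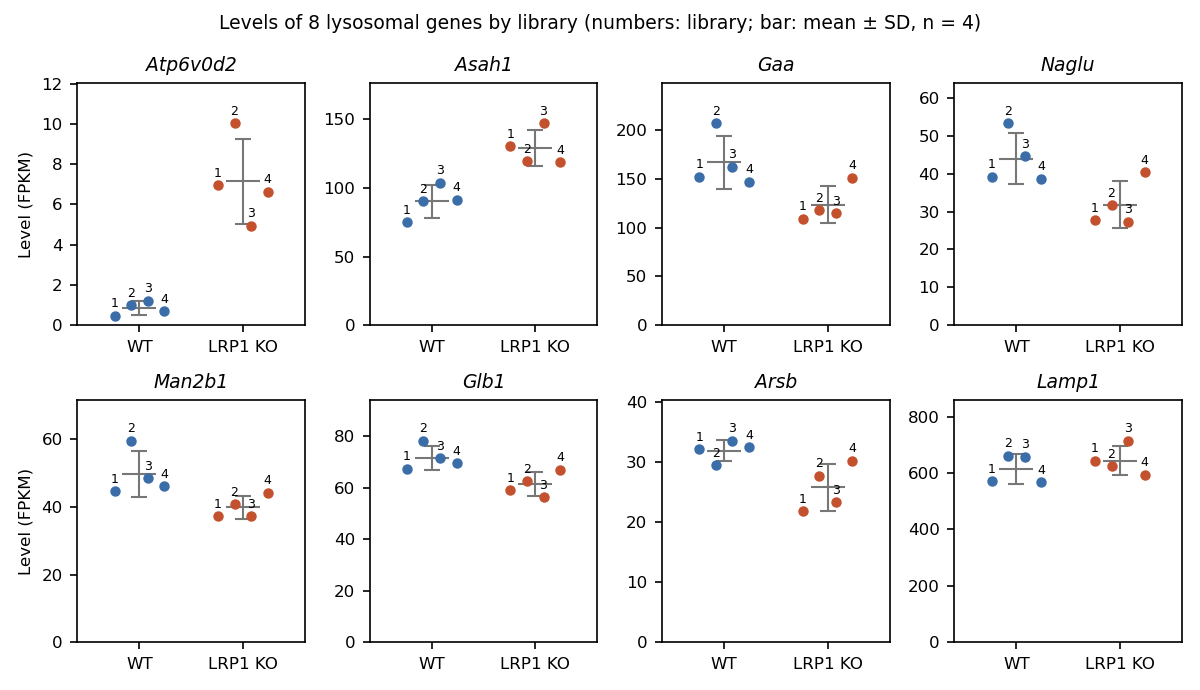
Level in FPKM of 8 lysosome genes in each library, with library numbers beside the points and bars for mean ± SD (n = 4). The groups are separate for Atp6v0d2 and Asah1 and, narrowly, for Man2b1 and Glb1, and they overlap for Gaa, Naglu, Arsb and Lamp1. LRP1 KO library 4 is the highest LRP1 KO point for Gaa, Naglu, Man2b1, Glb1 and Arsb.

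Of the other glycosaminoglycan enzymes, Idua, which removes iduronic acid, had 9.25, 12.4, 10.5 and 8.80 FPKM in WT libraries, and 8.26, 8.73, 8.71 and 8.08 FPKM in LRP1 KO libraries. The groups were separate by less than 0.1 FPKM and the difference of -0.24 (SE 0.10) did not pass (limma adjusted p = 0.120). Gusb, beta-glucuronidase, had a difference of 0.03 (SE 0.06) and was, beside Asah1, the one enzyme gene with a higher mean. Ids, iduronate sulfatase, had -0.04 (SE 0.13). Its interval of -0.32 to 0.25 was wide for this group.

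The protease genes and Grn gave no call. Tpp1, tripeptidyl peptidase 1, had a difference of -0.09 (SE 0.09). Lgmn, the asparaginyl endopeptidase that processes cathepsins, had 128, 156, 146 and 113 FPKM in WT libraries, and 96.5, 122, 87.8 and 148 FPKM in LRP1 KO libraries. Its LRP1 KO libraries spread over a wider range than its WT libraries, and its difference of -0.28 had the largest SE of the enzymes (0.16). Grn, the precursor of lysosomal granulins, had a difference of -0.02 (SE 0.08). Hexa shares 12.8% of its exon bases with the antisense gene Tmem202, as Lamp1 shares 9.31% with Grtp1 and Atp6v0b 11.8% with Gm12841, and these levels are uncertain to that extent.

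Many of the enzymes were highest in the same library of a group. WT library 2 was the highest WT library in 13 of the 17. LRP1 KO library 4 was the highest LRP1 KO library in 9, beside 4 in library 2 and 4 in library 3. Of the 5 membrane protein genes, 3 were highest in WT library 2 and 3 in LRP1 KO library 4. The matching shares of all tested genes were not computed. The median deviation of the 17 enzymes from their WT means was -0.11, 0.19, 0.03 and -0.09 in WT libraries and -0.20, -0.19, -0.16 and -0.08 in LRP1 KO libraries. The groups thus overlapped, since LRP1 KO library 4 lay above WT libraries 1 and 4. The fibroblast sum was also highest in these libraries, at 4136 FPKM in WT library 2 and at 3891 FPKM in LRP1 KO library 4. Pdgfra, a fibroblast receptor chosen after its values were seen, had 37.4 to 50.9 FPKM in WT libraries, and 14.2, 23.2, 18.0 and 37.7 FPKM in LRP1 KO libraries. Fbln2, the 1 fibroblast marker called higher, went the other way. It had 416 to 552 FPKM in WT libraries, and 768, 842, 796 and 625 FPKM in LRP1 KO libraries, lowest in library 4. Of 11 tested fibroblast markers 1 was called higher and 3 lower, and 1 and 6 without LRP1 KO library 4, beside 6.27% and 7.31% of all tested genes with it and 12.6% and 13.9% without it. Without any 1 of the other libraries 0 or 1 was lower. Their part in the enzyme estimates was not tested.

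**Figure D4:**
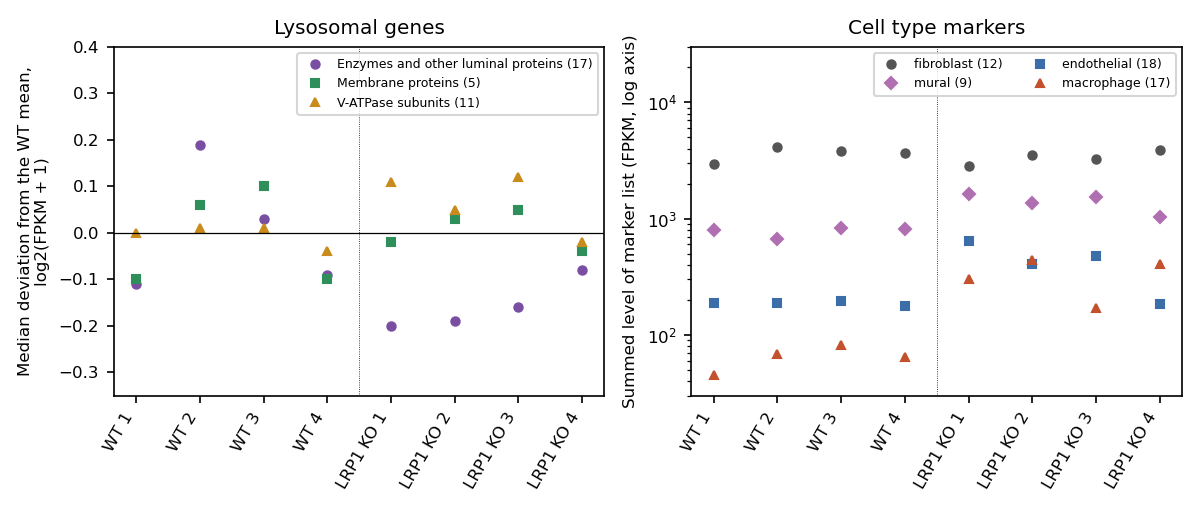
Left, median deviation of each class from the WT mean in every library on the log2(FPKM + 1) scale. Right, summed level of cell type markers (FPKM, log axis). The enzyme median is highest in WT library 2 (0.19), the macrophage sum is higher in all LRP1 KO libraries, and LRP1 KO library 4 has an endothelial sum of 185 FPKM, close to WT.

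The membrane protein genes were at high and even levels. Lamp1 and Lamp2 encode the most abundant glycoproteins of the lysosomal membrane. Lamp1 had 572, 662, 658 and 568 FPKM in WT libraries, and 644, 625, 715 and 594 FPKM in LRP1 KO libraries. Lamp2 had 177, 212, 237 and 188 FPKM in WT libraries, and 199.8, 207, 224 and 229.8 FPKM in LRP1 KO libraries. The groups overlapped for both, with differences of 0.07 (SE 0.08, 95% interval -0.11 to 0.25) and 0.08 (SE 0.09, 95% interval -0.12 to 0.29).

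Cd63, a tetraspanin of late endosomes and lysosomes, had the highest WT mean of the 34 genes. It had 842, 869, 862 and 829 FPKM in WT libraries, and 823, 823, 768 and 829 FPKM in LRP1 KO libraries, a difference of -0.07 (SE 0.05). Its level is uncertain, since 36.5% of its 50-base stretches also occur in the pseudogene Cd63-ps. Scarb2 carries glucocerebrosidase to the lysosome and had a difference of 0.05 (SE 0.07). Mcoln1, the calcium channel of the lysosomal membrane, had 34.3, 42.2, 37.4 and 33.4 FPKM in WT libraries, and 31.3, 30.6, 34.7 and 33.96 FPKM in LRP1 KO libraries. The groups overlapped and its difference of -0.17 (SE 0.08) did not pass the test (limma adjusted p = 0.183).

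Tfeb itself was expressed near the median level of all tested genes. It had 12.4, 11.7, 10.02 and 10.1 FPKM in WT libraries, and 9.60, 9.97, 7.73 and 10.5 FPKM in LRP1 KO libraries. Library 4 was the one LRP1 KO library within the WT range. The difference of -0.21 (SE 0.10) did not pass (limma adjusted p = 0.183). The related factor genes Tfe3 and Mitf, named after their values were seen, had differences of 0.0013 (SE 0.06) and -0.14 (SE 0.14). Tfec, the other relative, also named after its values were seen, did not pass the filter for testing. It had 0.238, 0.474, 0.698 and 0.267 FPKM in WT libraries, and 1.49, 1.33, 1.08 and 0.612 FPKM in LRP1 KO libraries. Its LRP1 KO library 4 was within the WT range and the other 3 were above it (exact two-sided permutation p = 0.0571, n = 4).

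The V-ATPase contained the largest change of all 34 genes. Atp6v0d2 encodes the d2 isoform of subunit d, which joins the V0 sector to the central stalk, and is known from osteoclasts and macrophages. The gene spans chr4:19876841-19922605 on the minus strand (GRCm38, GENCODE M21). It had 0.475, 1.004, 1.22 and 0.694 FPKM in WT libraries, and 6.96, 10.02, 4.93 and 6.63 FPKM in LRP1 KO libraries. The lowest LRP1 KO library was above the highest WT library. The means were 0.848 ± 0.329 and 7.14 ± 2.12 FPKM (SD, n = 4), a ratio of 8.42 in FPKM and a difference of 2.12 (SE 0.19, 95% interval 1.69 to 2.55, adjusted p = 0.000492 by limma). It passed the filter with the help of its LRP1 KO libraries, and with every gene above 0 in any library tested instead, the limma adjusted p was 0.00456. Without LRP1 KO library 4 the difference was 2.14 (limma adjusted p = 0.000529).

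Its paralog Atp6v0d1, the d1 isoform found in most cells, did not pass the test. It had 125, 116, 115 and 116 FPKM in WT libraries, and 134, 121, 128 and 113 FPKM in LRP1 KO libraries, a difference of 0.07 (SE 0.06). The d2 isoform thus made up 0.379 to 1.05% of the summed FPKM of both isoforms in WT libraries and 3.72 to 7.62% in LRP1 KO libraries. The mean share was 0.722% in WT and 5.46% in LRP1 KO.

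Most tested macrophage and leukocyte markers were higher in the same libraries as Atp6v0d2. The summed level of the 17 macrophage markers in the table, led by Lyz2, C1qb and Mertk, was 44.7 to 82.1 FPKM in WT and 304, 443, 172 and 407 FPKM across LRP1 KO libraries 1 to 4. Of the 7 that were tested, 5 were called higher, where 6.27% of all tested genes were, and 4 without LRP1 KO library 4, where 12.6% were, but 3 of the 7 passed the filter only with the help of LRP1 KO libraries. LRP1 KO library 2 was highest and library 3 lowest for both Atp6v0d2 and this sum. The 12 leukocyte markers, led by Tyrobp, Fcer1g and Lcp1, summed to 9.004 to 14.01 FPKM in WT libraries, and 44.4 to 90.7 FPKM in LRP1 KO libraries, and 7 of 8 tested were called higher with and without LRP1 KO library 4, beside the same shares of all tested genes, and 4 of the 8 passed the filter only with such help. The macrophage subtype markers Clec4f, Timd4 and Cx3cr1 stayed below 0.05 FPKM in every library, and Adgre1 was not analysed here. The part of these marker levels in the rise of Atp6v0d2 was not tested.

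No osteoclast marker was called with all libraries, and Ctsk was called lower without LRP1 KO library 4, where 13.9% of all tested genes were. Their sum was 83.3 to 104 FPKM in WT libraries, and 56.7 to 97.3 FPKM in LRP1 KO libraries, nearly all of it from Ctsk and Acp5, the 2 that were tested. At an unadjusted p under 0.05 limma gave 0 of the 2 as higher and 1, Ctsk, as lower. Ocstamp and Calcr were below 0.05 FPKM in every library. Neutrophil and lymphocyte markers summed to at most 3.69 FPKM in any library, and the 1 tested marker, S100a8, passed the filter through its LRP1 KO libraries and 1 WT library. It was not called with no filter, so its call is not used. Mural markers, led by Acta2, Tagln and Pdgfrb, summed to 670.1 to 836 FPKM in WT libraries, and 1039 to 1627 FPKM in LRP1 KO libraries, with 4 of 8 called higher (6 without LRP1 KO library 4) where 6.27% of all tested genes were (12.6% without it), and parenchymal markers, nearly all Tnnt2, to 102 to 159 and 86.9 to 116 FPKM. Of 2 tested parenchymal markers 1 was called lower with and without that library, where 7.31% and 13.9% of all tested genes were.

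The other V0 subunits were near even. Atp6v0a1, the a1 isoform of the proton-conducting subunit a, had 56.6, 55.2, 56.0 and 63.8 FPKM in WT libraries, and 54.3, 50.7, 51.7 and 54.8 FPKM in LRP1 KO libraries. All LRP1 KO values were below all WT values, and the difference of -0.13 (SE 0.06) did not pass (limma adjusted p = 0.169). Atp6v0b and Atp6v0c, which form the proteolipid ring, had differences of -0.05 (SE 0.07) and -0.06 (SE 0.06). The level of Atp6v0c is uncertain, because 32.5% of its 50-base stretches occur in other genes, mostly the pseudogene Atp6v0c-ps2.

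The V1 subunits showed small differences in both directions. Atp6v1d and Atp6v1h, a stalk and a regulatory subunit, had the highest V1 estimates. Atp6v1d had 89.3, 82.1, 87.9 and 83.5 FPKM in WT libraries, and 105, 94.5, 97.9 and 87.8 FPKM in LRP1 KO libraries. LRP1 KO library 4 was within the WT range, and the difference was 0.16 (SE 0.06, adjusted p = 0.104 by limma) with it and 0.21 (limma adjusted p = 0.0308) without it. Atp6v1h had 83.4, 82.7, 80.1 and 75.1 FPKM in WT libraries, and 90.9, 87.6, 88.0 and 84.2 FPKM in LRP1 KO libraries. Its groups were separate, with a difference of 0.13 (SE 0.05, adjusted p = 0.128 by limma).

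Atp6v1c1, a subunit that joins the V1 and V0 sectors, was separate between groups by a small amount. Its levels were 49.4, 49.7, 49.6 and 48.2 FPKM in WT libraries, and 53.0, 50.9, 49.8 and 51.9 FPKM in LRP1 KO libraries, a difference of 0.06 (SE 0.04). The catalytic subunit A gene, Atp6v1a, had 0.05 (SE 0.11) and the B subunit gene, Atp6v1b2, had -0.12 (SE 0.06). Atp6ap1, an accessory protein used in assembly, had 0.11 (SE 0.07). None of these 4 passed the test.

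Tcirg1 was among 14 further V-ATPase genes, of which 8 were tested, 1 (12.5%) rose and 1 (12.5%) fell, where 6.27% and 7.31% of all tested genes did. Without LRP1 KO library 4 these were 2 and 1. Tcirg1 encodes the a3 isoform of subunit a, known from osteoclasts and immune cells, and had 24.4, 27.2, 21.1 and 20.8 FPKM in WT libraries, and 28.6, 31.3, 32.9 and 28.5 FPKM in LRP1 KO libraries. The groups did not overlap, with a difference of 0.37 (SE 0.09, adjusted p = 0.0326 by limma), and of 0.40 without LRP1 KO library 4 (limma adjusted p = 0.0208). The call was lost with no filter and with the replicate block. It was also lost without WT library 1, 3 or 4 and without LRP1 KO library 1, 2 or 3. Tcirg1 made up 20.4 to 27.9% of the summed FPKM of the 4 subunit a genes in WT and 28.2 to 31.8% in LRP1 KO, while Atp6v0a1 made up 56.6 to 62.6% and 49.97 to 55.2%. The summed level of the 4 genes was 97.7 ± 2.98 FPKM in WT libraries, and 101 ± 2.32 FPKM in LRP1 KO libraries (SD, n = 4). Atp6v0e2, an isoform of the small V0 subunit e, fell by 0.31 (SE 0.09, adjusted p = 0.0432 by limma), and by 0.34 without LRP1 KO library 4 (limma adjusted p = 0.0285). Its call was lost with no filter, with no trend and with the replicate block. It was also lost without WT library 1, 2 or 3 and without LRP1 KO library 1, 2 or 3.

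**Figure D5:**
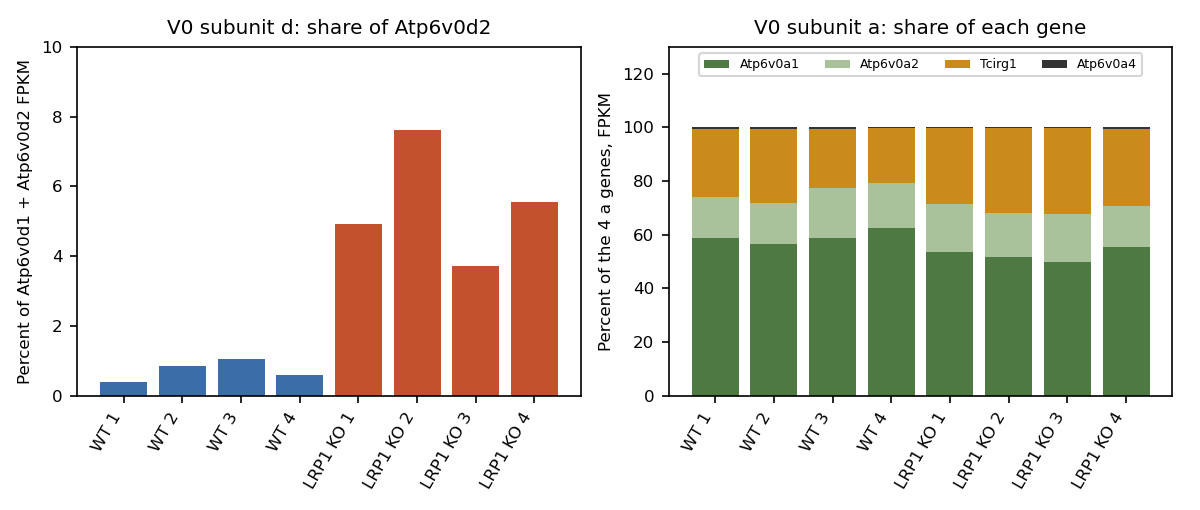
Isoform use in the V0 sector in each library, as the percent of summed FPKM. Left, the d2 share of subunit d, at most 1.05% in WT and at least 3.72% in LRP1 KO libraries. Right, shares of the 4 subunit a genes, with Tcirg1 at 20.4 to 27.9% in WT and 28.2 to 31.8% in LRP1 KO.

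In the other lysosome lists 22 genes were called. All 22 remained called without LRP1 KO library 4, but only Cd68, Laptm5, Slc11a1, Slc15a3, Ctss and Gga2 remained called in each of the other settings tried too, and 16 lost the call in 1 or more. The shares below are to be read beside the 6.27% of all tested genes called higher and the 7.31% called lower, or 12.6% and 13.9% without LRP1 KO library 4.

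Of 32 other lysosomal enzymes tested, 1 (3.12%) rose and 3 (9.38%) fell, shares near those of all tested genes, and the median difference was -0.09. Without LRP1 KO library 4, 1 was called higher and 8 lower. Of the 13 settings tried, 3 gave 0 higher and 4 gave 0 lower. The third that fell, Rnaset2a (-0.26, SE 0.07, limma adjusted p = 0.0446), was named after its values were seen, and its level is uncertain because it has a near-identical copy, Rnaset2b. Aga, which cleaves the link of sugars to asparagine, rose by 0.26 (SE 0.05, adjusted p = 0.0173 by limma). Dnase2a, the acid DNase, fell by 0.42 (SE 0.09, limma adjusted p = 0.0232), and Gm2a, the activator that presents gangliosides to beta-hexosaminidase, fell by 0.35 (SE 0.08, limma adjusted p = 0.0219). Among 11 tested cathepsin genes Ctss rose and Ctsa fell (9.09% each), with a median of -0.15, and 1 and 3 were called without LRP1 KO library 4. Ctss, a protease of antigen-presenting cells, rose by 2.73 (SE 0.23, limma adjusted p = 0.000449). Ctsa, the protective protein that forms a complex with the Glb1 and Neu1 enzymes, fell by 0.36 (SE 0.09, limma adjusted p = 0.0281; adjusted p = 0.00805 without LRP1 KO library 4), with 388, 500.4, 435 and 421 FPKM in WT libraries, and 324, 329.9, 324 and 377 FPKM in LRP1 KO libraries. The groups of Ctsa did not overlap. Its call was lost with no filter, without WT library 2, 3 or 4 and without LRP1 KO library 1, 2 or 3.

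Of 23 other tested membrane genes 4 (17.4%) rose and 3 (13.0%) fell, with a median of -0.08, and 4 and 5 were called without LRP1 KO library 4. Of those that rose, 3 passed the filter only with the help of LRP1 KO libraries, so nothing is read from their share, and all 3 also passed the test with no filter. The 4 were Laptm5, Cd68, Slc11a1 and Slc15a3, which are known from macrophages and other leukocytes. The last 2, and Ctns among those that fell (-0.31, SE 0.08, limma adjusted p = 0.0420), were named after their values were seen. Laptm5 had 0.549, 1.84, 2.06 and 1.69 FPKM in WT libraries, and 10.4, 15.9, 9.24 and 11.8 FPKM in LRP1 KO libraries, a difference of 2.36 (SE 0.23, adjusted p = 0.000628 by limma, or 0.00526 with no filter). Cd68 rose by 1.83 (SE 0.18, limma adjusted p = 0.000673). Both, like Atp6v0d2, were highest in LRP1 KO library 2 and lowest in library 3. Tmem55b, a phosphoinositide phosphatase of the lysosomal membrane, and Cln3 each fell by 0.32 (SE 0.09 and 0.08, limma adjusted p = 0.0459 and 0.0393).

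Among 10 genes of enzyme targeting 1 rose and 3 fell, with a median of 0.03, and 2 and 3 were called without LRP1 KO library 4. Igf2r, the mannose 6-phosphate receptor that sorts hydrolases, rose by 0.31 (SE 0.09, adjusted p = 0.0443 by limma). Gga2, a sorting adaptor, fell by 0.35 (SE 0.06, limma adjusted p = 0.00954), and Sort1, another sorting receptor, fell by 0.32 (SE 0.09, limma adjusted p = 0.0442). The third that fell, Gnptg (-0.25, SE 0.07, limma adjusted p = 0.0468), was named after its values were seen. Of 19 tested genes of lysosome biogenesis, fusion and nutrient signaling 0 rose and 3 (15.8%) fell by limma, with a median of -0.03, and the counts were the same without LRP1 KO library 4. At an unadjusted p under 0.05, 0 were higher and 3 (15.8%) were lower, beside 15.5% and 18.2% of all tested genes. The largest falls were of Rragb at 0.52 (SE 0.13, limma adjusted p = 0.0329) and Lamtor1 at 0.24 (SE 0.05, limma adjusted p = 0.0148), both parts of the machinery that recruits mTORC1 to lysosomes, and Flcn, named after its values were seen, also fell (-0.20, SE 0.06, limma adjusted p = 0.0464).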

How the data were processed

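Messenger RNA levels were measured by sequencing in 8 libraries of mouse cells, 4 WT and 4 LRP1 KO, grouped by sample title. The authors deposited 1 table of 22520 genes whose FPKM values had, as deposited, column sums of 503571 to 504112 and 1 shared maximum of 7793, as left by quantile normalization. The header gives no unit, so FPKM was inferred. The submitters' processing notes name TopHat2, Cufflinks and mm10, and the study's methods describe trimming, alignment and counting by other tools, so how the values were made is not given in the sources used here. Depth and counting error are unknown, and values at 0 were not used for folds.

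Genes at 1 FPKM or more in 4 or more libraries (11389) were tested on log2(FPKM + 1) with limma 3.58.1 (trend, group as the only term) in R 4.3.3, a count test not being possible, and p-values were adjusted by Benjamini-Hochberg over all of them. No test was made over the gene list. The 34 genes and the gene lists were chosen with earlier results of these data known. From each other lysosome list the 2 largest rises and 2 largest falls among called genes were named, and from each marker list the 3 genes with the highest mean. Alternatives were a pseudocount of 0.1, no filter, rescaled libraries, no trend, a replicate block and leaving out each library. Gene positions and overlaps were taken from GENCODE M21 (GRCm38), and promoter windows from RefSeq (GRCm38.p6). Windows of 5 of the 34 genes, including Atp6v0d2 and Asah1, and the genes Galns, Vamp7, Glmp, Lamtor4, Lamtor5 and Adgre1 were not analysed here.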

Additional observations from a re-analysis of the deposited data

Results flagged for a closer look

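In 5 of 68 groups of 4 libraries, 1 library lay far from the other 3, by a gap past Dixon's 95% limit for its share of the group's range, where chance gives about 1 in 20. Gla in LRP1 KO library 4 was 26.8 FPKM against 23.1 to 23.6 FPKM (0.872 of the range). Cd63 in LRP1 KO library 3 was 768 FPKM against 823 to 829 FPKM (0.891). Atp6v0a1 in WT library 4 was 63.8 FPKM against 55.2 to 56.6 FPKM (0.835). Atp6v0c in LRP1 KO library 1 was 414 FPKM against 385 to 389.7 FPKM (0.839). Atp6v0d1 in WT library 1 was 125 FPKM against 115 to 116 FPKM (0.887). None of these genes was called.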

How the results depend on the processing

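Over 13 alternative settings, 423 of 442 values of the 34 genes kept their direction and their side of the threshold, and 0 of the calls were lost. Atp6v0d2 ranged from 1.96 to 2.96 (limma adjusted p 0.000351 to 0.00705) and Asah1 from 0.43 to 0.58 (limma adjusted p 0.00836 to 0.04995). Leaving out LRP1 KO library 4 added 6 calls, Gaa, Naglu, Glb1, Man2b1, Arsb and Atp6v1d, and the cause was not tested. Of the 22 calls in the other lysosome lists, 11 were lost with no filter, 5 with rescaled libraries, 5 with no trend, 12 with the replicate block and 0 with a pseudocount of 0.1, and 0 to 15 when 1 library was left out, with 0 reversed. Among the marker lists, the count of fibroblast genes called lower was 0 with no filter and 2 with the block, and that of endothelial genes called higher was 0 with no filter and 2 with the block. The count of lysosome genes called lower ranged from 0 to 5 when 1 library was left out. Over all genes those counts ranged from 280 to 1436 higher and from 232 to 1585 lower, each of the 8 libraries moving both counts by over 1.5 times, with the lowest of both without WT library 2 and the highest without LRP1 KO library 4. The direction of 7 genes with differences near 0 turned in 13 values when a library was left out, with ranges of -0.01 to 0.07 for Gusb, -0.06 to 0.04 for Psap, -0.06 to 0.05 for Grn, -0.12 to 0.06 for Ids, -0.01 to 0.09 for Scarb2, -0.10 to 0.0016 for Atp6v0b and -0.03 to 0.14 for Atp6v1a. The median of the membrane genes was -0.01 without WT library 1, and that of the enzymes ranged from -0.18 to -0.09. With the replicate number as a block, 493 genes were higher and 520 lower, and the lysosome genes had 2 higher and 0 lower calls. The numbers were not taken to pair the libraries, since the labels give no shared source and the deviations of same-numbered libraries correlated at 0.158, 0.141 and 0.340 in 3 pairs but at -0.312 in the fourth. That 5 of 8 libraries correlated best with their own number is a hint from the data that leaves a pairing of some libraries possible. Depth is unknown, so no limit from counting can be given.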
